A study of Mus musculus with 4 samples.

Results

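EphA receptors and the ephrin-A ligands that bind them were followed in mouse stem cell cultures with and without an induced fusion of the motor neuron factors Isl1 and Lhx3. The group holds 10 of the 21822 gene units counted. These are the receptors Epha2, Epha3, Epha4, Epha5 and Epha7 and the ligands Efna1, Efna2, Efna3, Efna4 and Efna5. The receptors were listed under limb motor axon guidance, though Epha2 and Epha5 are described below from other tissues. Members were chosen by name, and each was found as 1 gene unit holding no other gene. All 10 passed the filter on low counts.

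RNA was sequenced from 4 libraries of iMN-ESCs, a mouse embryonic stem cell line on a C57BL/6 background in which doxycycline (Dox) switches on the Isl1-Lhx3 fusion. All cultures were aggregates grown for 2 days in medium with LIF, a factor that keeps stem cells undifferentiated, and then for 2 days with 0.5 µM all-trans retinoic acid. Retinoic acid was kept for a further 2 to 3 days, with 2 µg/mL Dox in 2 libraries and without it in the other 2, called induced and uninduced here. No culture of cells lacking the transgene was given Dox, so a response to the fusion and one to the drug cannot be told apart. Whether the line is 1 clone is not stated. The labels call the replicates biological duplicates without naming separate cultures.

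Eph receptors are receptor tyrosine kinases, and ephrin-A ligands are tethered to the outer membrane by a lipid anchor, so the pair signals at contacts between cells. Receptor-bearing growth cones are usually repelled by ephrin-A (forward signalling), while ephrin-A on an axon can itself act as a receptor for EphA (reverse signalling). In the developing spinal cord, Epha4 on axons of the lateral division of the lateral motor column steers them into the dorsal limb. Epha3 and Epha4 keep axons of the medial motor column, the column that keeps Isl1 and Lhx3 together, apart from sensory axons.

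Part counts summed to between 24020832 and 53903936 per library. The induced factors followed the labels: Lhx3 stood at 0.404 and 0.286 CPM (counts per 1000000, scaled by TMM) uninduced and reached 125 and 108 CPM induced. All 6 motor neuron markers looked at were higher with Dox. Their summed level went from 6.57 and 7.79 CPM to 340 and 305 CPM. That list and sum include Isl1 and Lhx3, the factors in the induced fusion itself. Among the rest (Mnx1, Chat, Slc18a3 and Slc5a7), Mnx1 had the highest level, from 2.31 and 0.938 CPM to 48.5 and 43.9 CPM. Markers of other cell types were present. The 17 markers of extraembryonic endoderm, Col4a1, Col4a2 and Lama1 highest, summed to 53201 to 60215 CPM, with overlapping groups and 0 of 17 called. Levels within that list differed widely, with Gata4 at 553 to 644 CPM and Afp at 0.571 to 2.16 CPM, so the sum mainly follows its highest genes. The share of counts in the 3′ part of a gene was 26.7% and 27.6% in the replicates numbered 1 and 34.0% and 32.1% in those numbered 2, over 13838 genes with at least 5 parts.

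Epha7 was the only one of the 10 members called (an adjusted p under 0.05 over all genes tested), and it rose with Dox. It stood at 28.6 and 32.8 CPM uninduced (mean 30.7 ± 2.93, SD, n = 2) and at 83.1 and 70.4 CPM with Dox (76.8 ± 9.03). Each library with Dox held more than 2 times the Epha7 level of either library without it. The log2 fold change was 1.32 (SE 0.14), a 2.5-fold rise with an adjusted p = 0.0145 in edgeR's quasi-likelihood test. Over all 14283 genes tested, 1.23% were called higher and 0.056% lower, against 1 and 0 of the 10 members. At an unadjusted p under 0.05, 2 members were higher (Epha7 and Efna5) and 1 lower (Epha3), where 6.26% of all genes tested were higher and 4.02% lower. With DESeq2 1 member passed as higher (Epha7) and 1 as lower (Epha3), against 2.6% and 0.739% of the genes it gave an adjusted p. With limma-voom 1 passed as higher and 0 as lower, against 1.2% and 0.091% of all genes. In bulk RNA, a change in the number of cells that express a gene and a change in RNA per cell cannot be told apart.

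With any one of the 4 libraries left out, the log2 fold change of Epha7 was 1.20 to 1.46 (edgeR's adjusted p between 9.78e-06 and 0.00346). One group then holds 1 library, the spread comes from the other group alone, and the lone library is assumed to vary like it. These p-values are therefore no measure of how stable the call is. The call ended when the 3′ part of every gene was left out of the counts, an alternative chosen after seeing the data. There the log2 fold change was 1.29 and edgeR's adjusted p = 0.0573, in a fit that called 81 genes higher and 0 lower in all, against 175 and 8 with all parts.

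**Figure D1:**
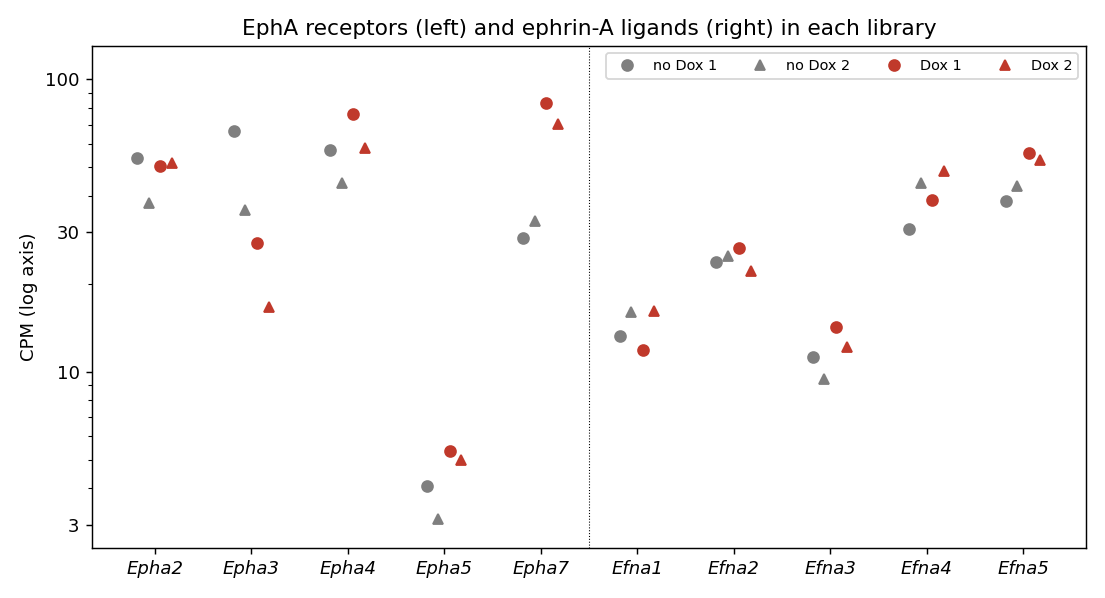
CPM of each member in each library, on a log axis; grey points are libraries without Dox, red points libraries with Dox, circles replicate 1 and triangles replicate 2. The Epha7 points with Dox (83.1 and 70.4 CPM) sit above those without (28.6 and 32.8 CPM), while the Epha3 points with Dox (27.6 and 16.6 CPM) sit below.

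Epha7 is annotated with a full form and a short form that ends before the kinase domain, and the deposited parts keep exons of either form separate. The following sequences show where the forms part, because exons of both had counts in these cultures. The short form's last exon lies in an intron of the full form, so unspliced full-form RNA would count there too, and this was not tested. Both sequences come from GENCODE M21 transcripts on build GRCm38, plus strand, while the counts were made on mm9. The first is the coding end of the short form's last exon (chr4:28946219-28946253), with its stop codon in capitals. The second is the whole exon that follows in the full form (chr4:28947528-28947653), 126 bases long.
Epha7 short form: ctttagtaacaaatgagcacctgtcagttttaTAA
Epha7 full form: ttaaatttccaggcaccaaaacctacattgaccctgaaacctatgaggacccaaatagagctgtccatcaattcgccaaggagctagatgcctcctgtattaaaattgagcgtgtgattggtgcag

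Exons of both forms of Epha7 had more counts with Dox. The last exon of the short form had 14 and 18 counts without Dox and 61 and 47 with it, or 0.514 and 0.734 CPM against 1.63 and 0.860 CPM. The 7 coding exons of the full form alone, before its last exon, went from 6.79 and 7.06 CPM to 19 and 17.1 CPM. The 9 shared exons went from 12.4 and 11 CPM to 34.2 and 23.4 CPM. In none of the 3 blocks did the groups overlap. The blocks are parts of a gene called in the same libraries, so this is no further support for the call. The log2 ratio of mean CPM was 1.0 for the short form's exon, 1.38 for the full form's coding exons and 1.30 for the shared exons.

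The balance between the forms was read from few counts. Of the counts on the short form's last exon and the next full-form exon together, the former held 42.7% without Dox (32 of 75, exact 95% interval 31.3% to 54.6%) and 35.4% with Dox (108 of 305, 30% to 41.1%). By library the shares were 40% and 45% without Dox and 38.9% and 31.8% with it. Both induced libraries were below both others, while the intervals of the groups overlapped. The exons differ in length and a read across a junction may count in 2 parts, so these shares are not shares of transcripts. Intervals here cover counting error only. All 18 Epha7 parts had a log2 ratio above 0, from 0.75 to 1.66. The test for unequal use of parts within a gene, fitted to 13200 genes, called 0.0379% of genes and none of the 10 members, by its F test or by Simes. The lowest unadjusted F test p among the members was 0.491, for Epha5. The F test called only 5 of the 13200 genes, so the lack of a call among the members does not show equal use of their parts.

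**Figure D2:**
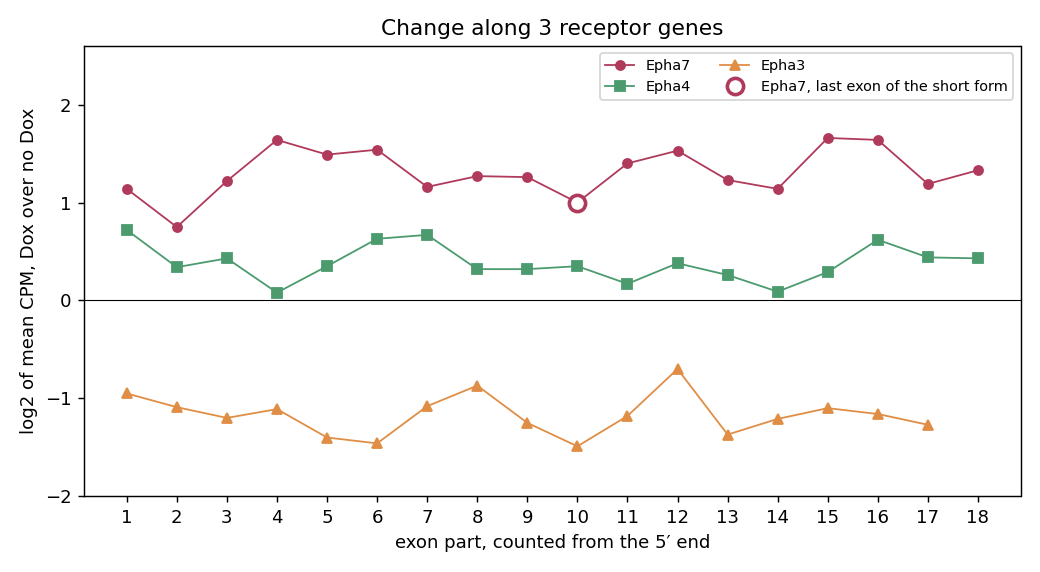
Log2 ratio of mean CPM with over without Dox for each exon part of Epha7, Epha4 and Epha3, numbered from the 5′ end; the open circle is the last exon of the short Epha7 form. Epha7 parts lie between 0.75 and 1.66 and Epha3 parts between -1.49 and -0.70, with Epha4 between 0.08 and 0.72.

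The promoter of Epha7 is printed because this receptor was the called member, and because LIM-homeodomain factors such as Isl1 and Lhx3 bind sequences built around TAAT. The run below is the 250 bases before a RefSeq start of Epha7 on GRCm38.p6 (chr4:28812895-28813144, plus strand), with a TAATTG in capitals.
Epha7 promoter: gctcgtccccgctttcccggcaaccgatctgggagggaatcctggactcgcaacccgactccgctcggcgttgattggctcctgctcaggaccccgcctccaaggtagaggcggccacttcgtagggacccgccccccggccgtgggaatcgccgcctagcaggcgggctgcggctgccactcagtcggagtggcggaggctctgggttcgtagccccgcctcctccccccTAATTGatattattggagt
The match begins 19 bases before the start. Another listed start of Epha7 lies slightly upstream, and its window ends inside the match and so does not hold it. TAATTG, read on either strand, was found in 7.17% of 32851 promoter windows of the same length and in 1 of the 13 windows of the members. TAATTA, which shares its first 5 bases with TAATTG, was found in 4.84% of all windows and in 2 member windows, those of Efna1 and Epha5. A match is a description of the letters and not a binding site.

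By the likeness of their levels over the 4 libraries, the genes nearest to Epha7 among 10892 genes averaging 5 CPM or more were Pcolce, Cdkn1c and Magel2. Likeness was the distance between log2(CPM + 1) profiles, each centred on its own mean, and came to 0.102, 0.167 and 0.182. Pcolce, an enhancer of procollagen processing, went from 10.8 and 13.8 CPM to 34.4 and 28.6 CPM. Cdkn1c, a cell cycle inhibitor of differentiating cells, went from 169 and 177 CPM to 408 and 379 CPM. Magel2, an imprinted MAGE family gene, went from 3.16 and 4.41 CPM to 10.4 and 9.46 CPM. edgeR called Pcolce and Cdkn1c higher (adjusted p = 0.0362 and 0.01) but not Magel2 (adjusted p = 0.0641). All were picked for profiles near that of a called gene in the same libraries, so these p-values are no separate result.

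Epha3 lay on the other side, without a call. Its level was 66.7 and 35.6 CPM uninduced and 27.6 and 16.6 CPM induced. Both libraries with Dox were below both others, though the first replicate of either group was well above the second (mean 51.1 ± 22 uninduced and 22.1 ± 7.76 induced, SD, n = 2). The log2 fold change was -1.22 (SE 0.36, edgeR unadjusted p = 0.0146, adjusted p = 0.271). DESeq2 called it lower (adjusted p = 0.00764). With a library left out, where the spread comes from the other group alone, edgeR did so without no Dox replicate 2 (log2 fold change -1.60, adjusted p = 0.0446) and without Dox replicate 1 (-1.62, adjusted p = 0.0133), but not without no Dox replicate 1 (-0.68, adjusted p = 0.442) or Dox replicate 2 (-0.87, adjusted p = 0.355). All 17 Epha3 parts had a log2 ratio below 0, from -1.49 to -0.70, and without the 3′ part the log2 fold change was -1.21 (edgeR adjusted p = 0.479).

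Markers of neural progenitors had lower values in the same libraries as Epha3. Both Dox libraries were below both others for 6 of 7 such markers, against 19.9% of all genes tested, and above for Olig2. edgeR called 0 of 7 (5 lower at an unadjusted p under 0.05). Their summed level was 590 and 477 CPM uninduced and 372 and 252 CPM induced, and none of the 7 was at 0. Their part in the Epha3 values was not tested. Lhx1 is a LIM factor of the lateral division of the lateral motor column and directs Epha4 there. Its level was 16.1 and 8.49 CPM uninduced and 5.59 and 2.71 CPM induced (edgeR adjusted p = 0.244). Foxp1, which marks limb-innervating motor neurons, stood at 51.6 and 51.2 CPM against 50.1 and 44.3 CPM (edgeR adjusted p = 0.846).

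Epha4, the receptor best known in limb motor axons, was not called. It stood at 57.4 and 44.1 CPM uninduced and 75.8 and 58.4 CPM induced. The groups nearly touched, at 57.4 and 58.4 CPM, and the log2 fold change was 0.40 (SE 0.19, edgeR adjusted p = 0.568). All 18 parts of Epha4 had a log2 ratio above 0, between 0.08 and 0.72. The last exon part held 31.9% and 35.4% of its counts in the replicates numbered 1 and 49.7% and 46.6% in those numbered 2. Without the 3′ part the log2 fold change was 0.37 (edgeR adjusted p = 0.999), and with the largest part alone as the count it was 0.46 (edgeR adjusted p = 0.22).

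Epha2 and Epha5 were the remaining receptors. Epha2, found in stem cells and epithelia more than in neurons, stood at 53.7 and 37.7 CPM uninduced and 50.6 and 51.8 CPM induced, so the groups overlapped (log2 fold change 0.16, SE 0.18, edgeR adjusted p = 0.874). Epha5, a receptor of forebrain and retinal axons, was the lowest member, at 4.07 and 3.14 CPM uninduced and 5.35 and 5 CPM induced. Its groups did not overlap, with a log2 fold change of 0.52 (SE 0.24) that rested on 77 to 273 counts per library (edgeR adjusted p = 0.559).

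Among the ligands none was called. Efna5, a repellent ligand for EphA-bearing axons, came closest. Its level was 38.4 and 43.0 CPM uninduced and 56.1 and 53.1 CPM induced. Both Dox libraries were above both others, the nearest values being 43.0 and 53.1 CPM. The log2 fold change was 0.42 (SE 0.12, edgeR unadjusted p = 0.0129, adjusted p = 0.256).

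Efna5 is annotated in a long and a short form that differ by 1 coding exon of 81 bases, shown here because its counts follow the long form. It lies at chr17:62613316-62613396 on the minus strand of GRCm38 and was taken from GENCODE M21.
Efna5 long-form exon: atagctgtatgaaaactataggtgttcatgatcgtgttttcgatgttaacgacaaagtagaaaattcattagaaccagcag
This exon had 26 and 26 counts without Dox and 61 and 54 with Dox, so it was read in all 4 libraries. The shared exon before it had 36 and 32 counts without Dox and 87 and 83 with Dox. Both induced libraries had larger totals, so these raw counts do not compare the groups. Scaled for depth, the long-form exon overlapped between the groups (uninduced 0.954 and 1.06 CPM, induced 1.63 and 0.988 CPM). The shared exon did not overlap (uninduced 1.32 and 1.31 CPM, induced 2.33 and 1.52 CPM). Of the raw counts on the pair, the long-form exon held 43.3% without Dox (exact 95% interval 34.3% to 52.7%) and 40.4% with Dox (34.6% to 46.3%). By library it held 41.9% and 44.8% without Dox and 41.2% and 39.4% with it. Both induced libraries were slightly below both others, and the latter interval lies inside the former.

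Efna1, Efna3 and Efna4 are direct neighbours on chromosome 3, with 0 protein-coding genes between them in RefSeq, and none was called. Efna3 stood at 11.2 and 9.47 CPM uninduced and 14.2 and 12.1 CPM induced, without overlap (log2 fold change 0.34, SE 0.19, edgeR adjusted p = 0.647). Efna4 stood at 30.7 and 44.3 CPM against 38.7 and 48.5 CPM, with overlap (0.22, SE 0.21, edgeR adjusted p = 0.846). Efna1, a ligand for Epha2 in epithelia and vessels, stood at 13.2 and 16.0 CPM against 11.9 and 16.1 CPM (-0.06, SE 0.21, edgeR adjusted p = 0.981). Whether the 3 neighbours differ from each other in their change was not tested. Of the first exons annotated for Efna1, the outer one had 0 of 58 first-exon counts without Dox, which allows a share of up to 6.16% (exact 95% interval), and 4 of 100 with Dox.

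Efna2 did not move between the groups by more than its replicates differed. It stood at 23.7 and 24.9 CPM uninduced and 26.4 and 22.1 CPM induced (log2 fold change -0.0032, SE 0.15, edgeR adjusted p = 0.998).

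Counted without a call, 5 of the 10 members had both Dox libraries above both others (Epha4, Epha5, Epha7, Efna3 and Efna5) and 1 had both below (Epha3). Over all genes tested 18.9% lay above and 19.9% below. The median log2 fold change of the members was 0.28, and that of all genes tested was -0.01. With 2 libraries against 2, an exact two-sided permutation test of 1 gene cannot give a p below 0.333.

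**Figure D3:**
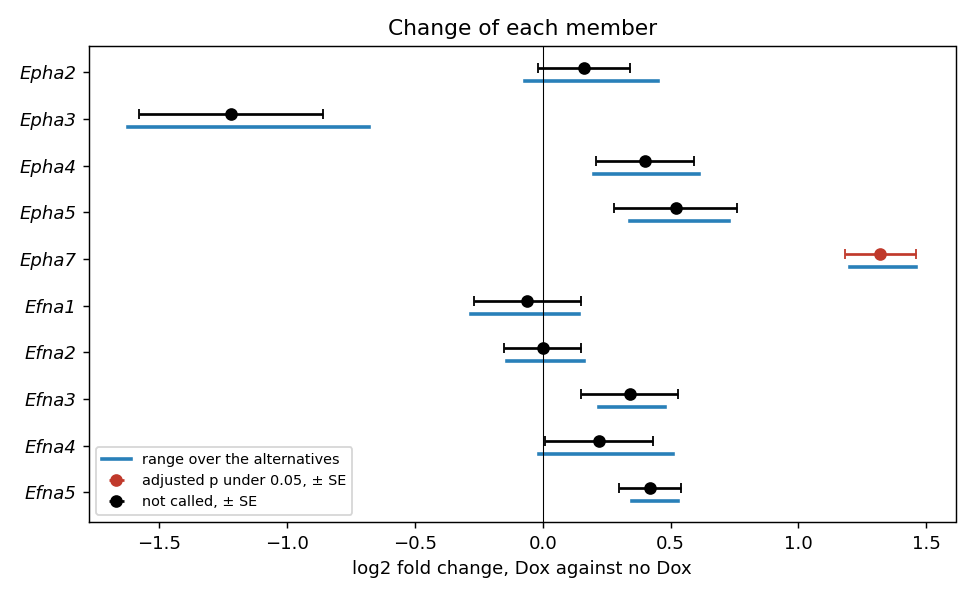
Log2 fold change of each member with Dox against without, ± SE (points), and the range over the alternative fits (blue bars). Epha7, in red, is the called member at 1.32, and Epha3 is the member farthest below 0 at -1.22.

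The order of the receptors by level per length differed between the groups. In CPM per kb of exon, levels without Dox were 13.7 and 9.62 for Epha2, 11.8 and 6.28 for Epha3, and 9.06 and 6.97 for Epha4. Epha3 overlapped both of the others, while Epha2 lay above Epha4. Epha7 followed at 3.78 and 4.33, below them, and Epha5 was last at 0.556 and 0.429. With Dox, Epha2 was at 12.9 and 13.2, Epha4 at 12 and 9.22, and Epha7 at 11 and 9.29. Epha4 and Epha7 overlapped there, and both lay above Epha3, at 4.87 and 2.93, and Epha5, at 0.730 and 0.682. The summed receptor level overlapped between the groups, at 38.9 and 27.6 CPM per kb without Dox and 41.5 and 35.4 with Dox.

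Within this receptor sum, Epha7 made up 9.72% and 15.7% without Dox and 26.5% and 26.3% with Dox. Epha3 made up 30.3% and 22.7% without Dox and 11.7% and 8.28% with Dox. Epha7 had 0.321 and 0.688 times the counts per kb of Epha3 without Dox and 2.26 and 3.17 times with it. Epha4 held 23.3% and 25.2% without Dox and 28.9% and 26.1% with it, a narrow gap. Epha2 held 31.2% to 37.4% in the 4 libraries, with overlap. None of these shares was tested. A read that spans exons may count more than once, which raises genes with many short exons, so these levels are approximate between genes.

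Among the ligands, Efna4 was highest per length in every library, at 19.2 and 27.7 CPM per kb without Dox and 24.2 and 30.3 with it. Without Dox, Efna2 (11.1 and 11.7) stood just above Efna5 (9.53 and 10.7). With Dox, Efna5 (13.9 and 13.2) stood above Efna2 (12.4 and 10.4). Efna1 (6.50 to 8.78 over the 4 libraries) and Efna3 (4.01 to 6.02) were lowest. Neighbours in the ligand order did not overlap within either group. These orders were not tested and depend on the scale: as shares of plain counts, not divided by length, Efna5 (32.8% and 31.2% without Dox, 38.1% and 35% with it) was above Efna2 (20.2% and 18.1%, then 17.9% and 14.6%) in every library.

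**Figure D4:**
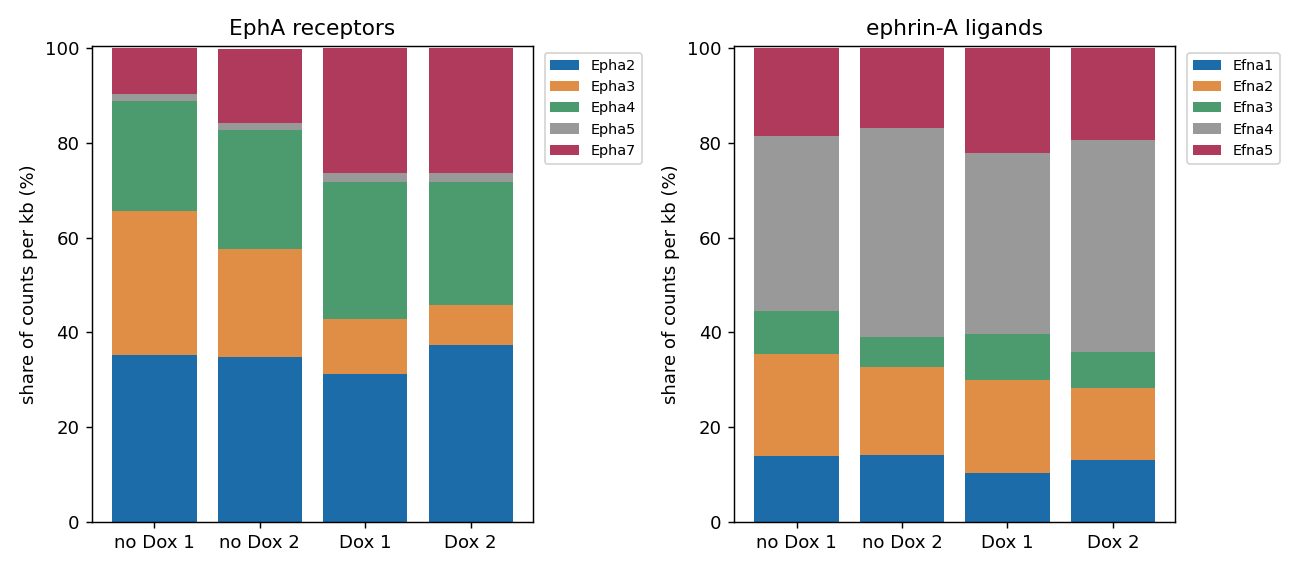
Share of each receptor in the summed counts per kb of the 5 receptors (left) and of each ligand in the 5 ligands (right), in each library. In the left panel Epha7 takes 9.72% and 15.7% without Dox and 26.5% and 26.3% with Dox, and Epha3 takes 30.3% and 22.7% without and 11.7% and 8.28% with Dox.

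The rest of the pathway was read from 53 further genes, of which 51 were tested. edgeR called 0 higher and 0 lower, as did limma-voom. At an unadjusted p under 0.05, 3 were higher (Ephb3, Ngfr and Mmp14) and 1 lower (Ntrk3), near or below the 6.26% and 4.02% of all genes. DESeq2 called 2 higher (Ngfr and Mmp14) and 1 lower (Ntrk3), beside 2.6% and 0.739% of all its genes. These genes were picked out after their values were seen. The median log2 fold change of the 51 was 0.02, beside -0.01 over all genes tested.

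Of 4 other EphA receptors 3 were tested. Epha1, an epithelial receptor, stood at 12.2 and 12.2 CPM uninduced and 12.9 and 13.5 CPM induced, and Epha8 at 1.54 and 1.59 against 2.54 and 1.10 CPM. Among 8 EphB receptors and ephrin-B ligands, which form the parallel system used by medial limb axons, Ephb3 stood at 125 and 126 CPM against 149 and 169 CPM (edgeR adjusted p = 0.36), and Ephb4 at 125 and 110 against 133 and 136 CPM.

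Genes that carry the signal inside the cell had no call. Of 31 tested, 0 were called by edgeR and 0 passed an unadjusted p under 0.05, and their median log2 fold change was -0.01. Inppl1, a lipid phosphatase that binds Epha2, stood at 292 and 244 CPM against 305 and 298 CPM, and Cdc42, a small GTPase of the growth cone, at 226 and 276 against 239 and 260 CPM. Of 9 genes of reverse signalling and ephrin cleavage, none was called. Adam10, the protease that cuts ephrin-A, stood at 371 and 391 CPM uninduced and 378 and 419 CPM induced, and Adam17, a related protease, at 131 and 109 against 123 and 117 CPM.

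Ngfr, a partner of ephrin-A in reverse signalling, and Ret, a receptor that acts with ephrin-A in limb motor axons, both had higher values with Dox and no call. Ngfr was at 10.1 and 7.39 CPM uninduced and 20 and 15.9 CPM induced (edgeR adjusted p = 0.129). Ret was at 31.1 and 20.3 CPM against 36.1 and 31.9 CPM (edgeR adjusted p = 0.656). Ntrk3 was at 11.2 and 9.06 CPM against 4.25 and 3.68 CPM (edgeR adjusted p = 0.0542), and Mmp14 at 28.5 and 35.1 against 55.5 and 57.4 CPM (edgeR adjusted p = 0.0664).

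Besides the motor neuron markers, some markers of other cells were higher in the same libraries as Epha7. Of 7 fibroblast markers, edgeR called 3 higher with Dox (Col1a1, Col3a1 and Prrx1), where 1.23% of all genes tested were called higher. Prrx1, a limb mesenchyme factor, went from 2.61 and 3.63 CPM to 35.3 and 25.1 CPM. The summed level of the list was 519 and 489 CPM uninduced and 579 and 552 CPM induced, and none of its genes was at 0. Most of that sum was Pdgfra, which went the other way. Its level in both Dox libraries was below that in both others, without a call. Of 11 pan-neuronal markers 1, the neurofilament Nefm, was called higher and 0 lower. Their summed level went from 835 and 635 CPM to 1549 and 1266 CPM. Nefl and Nefm made up most of this sum with Dox only. Nefl went from 277 and 166 CPM to 900 and 659 CPM, and Nefm from 95.2 and 93.8 CPM to 251 and 311 CPM. For 6 of the 11, Tubb3 and Map2 among them, both Dox libraries were below both others, against 19.9% of all genes tested. For 4 of the 11 both were above, against 18.9%. Which cells carried the Epha7 reads was not tested.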

How the data were processed

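Libraries were made with the Illumina TruSeq RNA protocol, per the labels' protocols. TopHat and the build mm9 are named in the submitters' processing notes, without versions. No source used here gives the counting tool, its annotation or the use of strand. The authors deposited whole-number counts for 208825 parts of genes, 1 table per library, with 4 closing rows that name no gene. These rows stayed out of totals and tests (reads outside genes, 13.6% to 15.8% of all counts, and ambiguous reads, 0.411% to 0.521%).

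Parts were summed to 21822 gene units and named through RefSeq (GRCm38.p6) and GENCODE M21, which matched 97.1% of 27601 identifiers. Exon lengths, order and strand came from GENCODE M21, whose exon numbers matched the number of parts in all 10 members. Part numbers follow the genome and were turned to run 5′ to 3′. No pair of replicates agreed within counting error (chi-square over degrees of freedom 31.7 uninduced, 28.8 induced). P-values measure the spread between these samples, which may be technical.

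Dox was compared with no Dox in 1 fit over 14283 genes by edgeR 4.0.16 (R 4.3.3), with robust quasi-likelihood dispersions, TMM scaling, filterByExpr and a Benjamini-Hochberg adjusted p under 0.05. SE is the log2 fold change divided by the root of F. Alternatives used DESeq2 1.42.0, limma-voom (limma 3.58.1), other scalings and filters, the largest part, a replicate block and each library left out. Part use was tested with edgeR on parts with at least 10 counts. Both steps were tested on simulated data.

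The members, lists, alternatives and the rule for named genes were chosen with earlier results of these data known. By that rule the text names all members, of each pathway list the called genes or else the 2 with the largest mean CPM, Isl1, Lhx3, Lhx1 and Foxp1, and the 3 genes nearest in profile to a called member. Ret, Ngfr, Ntrk3, Mmp14 and single markers were named after their values were seen. Isl1 levels were 3.08 and 5.83 CPM uninduced, 104 and 82.4 CPM induced. Other marker lists read were pluripotent (summed 82.7 to 102 CPM, 0 of 7 called) and endothelial (26.8 to 52.4 CPM, 0 of 4). Glial (6.05 to 16.3 CPM, 1 of 3, Aqp4) and epithelial lists (183 to 247 CPM, 0 of 5) were read too. Of 9 limb column factors, 4 were called higher (Isl1, Lhx3, Lhx4 and Mnx1), against 1.23% of all genes tested. Isl1 and Lhx3 are the factors in the induced fusion itself. Both Dox libraries were below both others for 3 of the 9 (Lhx1, Foxp1 and Aldh1a2), against 19.9% of all genes tested. Both were above for 6, against 18.9%. Aldh1a2 went from 15.9 and 38.6 CPM to 5 and 11.9 CPM, without a call.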

Additional observations from a re-analysis of the deposited data

How the results depend on the processing

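Counts of calls moved with the model, over all genes as in the members: edgeR called 175 genes higher and 8 lower, with no filter 295 and 46, with library totals 203 and 16, DESeq2 398 and 113, and edgeR with a library left out 276 to 283 and 22 to 124. With a library left out, the lone library of its group is assumed to vary like the other group. Of 129 recomputed log2 fold changes of members, 110 kept their direction and their side of the threshold, 1 fell short of it, 6 newly passed it and 12 turned sign. The 1 that fell short was Epha7 without the 3′ part of every gene (1.29, edgeR adjusted p = 0.0573), so 0 members were called higher there. Members called lower numbered 1 (Epha3) in DESeq2, and 0 to 1 with a library left out, against 0 in edgeR. Sign changes concerned members near 0. Efna2 was at 0.0025 with DESeq2 size factors, 0.017 with library totals, 0.019 with no filter, 0.012 with a filter at a mean of 5 CPM, 0.0023 in DESeq2 and 0.16 without the 3′ part. With a library left out Efna2 ran from -0.14 to 0.14, Efna1 from -0.28 to 0.14, Epha2 from -0.069 to 0.45 and Efna4 from -0.014 to 0.51. The cause was not tested. Pathway genes called higher, 0 in edgeR, numbered 2 with no filter, 2 in DESeq2 (Ngfr and Mmp14 in both) and 1 to 2 with a library left out. Those called lower numbered 1 with library totals, 1 with no filter and 1 in DESeq2 (Ntrk3 in each), and 0 to 2 with a library left out. Family shares from plain counts in place of counts per kb moved by more than the SD between replicates for 14 of 20 values, and Epha7 then held 17.5% without and 34.6% with Dox.

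Replicate numbers are shared by the groups without a stated pairing. The difference between replicates 1 and 2 correlated across genes between the groups (r = 0.641), but with 2 pairs this is a hint from the data, not the design. With a replicate block, edgeR called 3 members higher (Epha4, 0.40, adjusted p = 0.00319; Epha7; Efna5, adjusted p = 0.00435), 1 lower (Epha3, -1.19, adjusted p = 9.09e-08), 6 pathway genes higher and 4 lower, and 1047 and 869 genes in all.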
